A study of Drosophila melanogaster with 4 samples.

Results

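The clusters of the RNA-binding protein POF on 2L, the left arm of chromosome 2 of Drosophila melanogaster, were mapped by chromatin immunoprecipitation and sequencing (ChIP-seq) in nuclei of adult fly heads. A cluster is a region listed as significantly enriched. The clusters described here were all those on 2L in the list deposited for the whole series, called the replicate set, and were chosen by position alone. They numbered 1541 of the 9053 enriched clusters in that list. The flies were Oregon-R (Oregon-R-modENCODE), wild type in genotype and of mixed adult stage, and had been raised in population cages. Heads were separated with sieves, their chromatin was crosslinked with formaldehyde, and POF was precipitated with an antibody against it. The design held 2 POF ChIP libraries and 2 input libraries, each input paired with the ChIP library of the same number. Each ChIP library has its own list of clusters, with 1203 on 2L in replicate 1 and 920 in replicate 2. A head holds many cell types, so that fewer cells with POF at a site and less POF per cell cannot be told apart. Separate cultures are not recorded for the replicates, whose spread may therefore be technical. Input signal was not analysed here.

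POF is known for coating chromosome 4, the smallest autosome, where it binds over active genes together with the heterochromatin protein HP1 and raises their output. It has also been found at sites on the X near the roX genes, which encode RNAs of the dosage compensation complex. The large autosomal arms, 2L among them, carry most genes of the genome. Positions are 1-based and follow FlyBase release 5, per the file headers. No gene annotation of that release was used here, so clusters are named by position. Read depth per library is unknown, and the width and number of clusters may depend on it.

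The first comparison placed 2L among the large arms, which are 2L, 2R, 3L, 3R and X. Clusters covered 11.8% of the 23011544 bases of 2L in replicate 1 and 9.97% in replicate 2, a mean of 10.9% ± 1.31 (SD, n = 2). The other large arms together were covered to 11.5% and 10.2%, a mean of 10.9% ± 0.921 (SD, n = 2). The cover of 2L was thus above that of the other arms in replicate 1 and below it in replicate 2. The ratio was 0.999 ± 0.0354 (SD, n = 2), and the difference was 0.00629 percentage points (exact two-sided permutation test, p = 1.0). Both arm values come from the same 2 libraries, which this test does not use. The smallest p it could give was 0.333, or 0.5 with the arms paired within a library, so no difference in cover between arms could pass a threshold of 0.05 here. Chromosome 4, the known home of POF, was covered to 66.5% ± 1.51 (SD, n = 2), so that 2L reached 0.164 ± 0.0159 times its cover (SD, n = 2).

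Against single arms, the sign of the difference was the same in both replicates for 2R, 3L and X. The cover of 2L minus that of 2R was -1.14 percentage points in replicate 1 and -1.48 in replicate 2. For 3L the difference was 0.513 and 0.659 points. For 3R it was 0.588 points in replicate 1 and -0.379 in replicate 2, and for the X it was 0.971 and 0.00619. In the replicate set the order of 2L and the X was the other way, at 15.2% and 15.8%. The order against 2R (17.1%) and 3L (14.6%) was kept there. The exact two-sided permutation p was 0.667 for 2R, 3L and X and 1.0 for 3R, or 0.889 and 1.0 after Benjamini-Hochberg adjustment over the 4 arms. With the smallest p given above, these values say nothing on whether the arms differ.

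By size, 2L clusters were also close to those of the other large arms. Their median width in the replicate set was 2020 bases, with quartiles of 1381 and 2601, against a median of 2002 bases and quartiles of 1410 and 2501 on the other large arms. The median score was 0.445 on 2L and 0.468 on the other arms. The score is the authors' value for a region, on a scale not given in the sources used here, and it ranks regions within a list. The widest 2L cluster measured 11.7 kb, against 13.7 kb for the widest of the other large arms. Among the 100 highest scores of the major chromosomes (the large arms and chromosome 4), 2L held 25 in replicate 1, while the lists of replicate 2 and of all libraries each had 18 there. Of the clusters on the major chromosomes, 2L held 19.3% (replicate 1) and 18.4% (all libraries' list). The count in replicate 1 was thus above the share of 2L and that in the replicate set was not. These counts were not tested.

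The arm was not covered evenly, and both replicates drew a similar profile. In 23 complete bins of 1 Mb, counted from the tip of the arm, cover ran from 4.93% to 21.5% in replicate 1 and from 4.24% to 19.1% in replicate 2. The 2 profiles had a Spearman rho of 0.849 and a Pearson r of 0.901 over the 23 bins. This correlation is a description, because neighbouring bins share chromatin and each library has its own depth. Replicate 1 was the higher in 21 of the 23 bins, with a median ratio of 1.18. The most covered bin by the mean of the replicates was 10000001 to 11000000, at 21.5% in replicate 1 and 19.1% in replicate 2. Next came 1 to 1000000, at 15.0% and 15.2%, and 8000001 to 9000000, at 16.3% and 12.4%. The least covered bins were 15000001 to 16000000, at 4.93% and 4.24%, 14000001 to 15000000, at 6.68% and 4.79%, and 17000001 to 18000000, at 7.79% and 4.31%. The lowest bin held 35 replicate-set clusters, whereas the highest held 81.

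**Figure D1:**
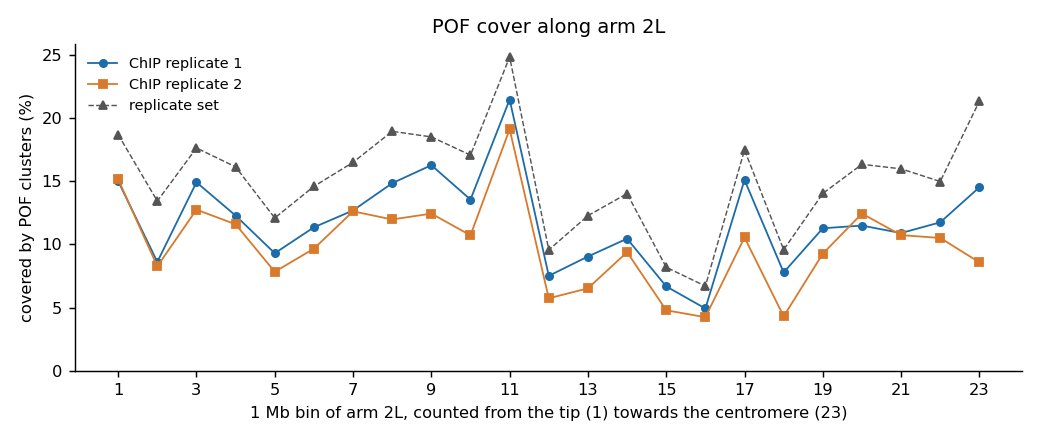
Percent of each complete 1 Mb bin of 2L covered by POF clusters (y axis) against the bin's order from the tip towards the centromere (x axis), for each ChIP replicate and the replicate set. Both replicates peak in bin 11, at 21.5% and 19.1%, and dip to 4.93% and 4.24% in bin 16.

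Much of the cover of the highest bin lay in a stretch of 300 kb, 10200001 to 10500000, which was singled out after its values were seen. It consists of the 3 most covered of the 230 complete 100 kb windows of 2L, which lie side by side. The window 10300001 to 10400000 was covered to 52.8% in replicate 1 and 49.7% in replicate 2. The window before it, 10200001 to 10300000, reached 52.0% and 50.1%, and the window after it, 10400001 to 10500000, reached 41.5% and 36.0%. The next most covered window of the arm, 5000001 to 5100000, came to 33.2% and 28.8%. On the other large arms the highest of 959 windows stood at 45.5% in replicate 1, on 3L. The highest in replicate 2 was another window, on 2R, at 39.7%. Both leading 2L windows were above these values in both libraries. As a whole the stretch was covered to 48.8% in replicate 1 and 45.3% in replicate 2, a mean of 47.0% ± 2.48, against 11.3% and 9.51%, a mean of 10.4% ± 1.29, on the rest of 2L (SD, n = 2).

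The edges of this stretch were sharp at the scale of the windows. Cover was 8.13% in replicate 1 and 8.80% in replicate 2 in the 300 kb before it, and 11.1% and 8.30% in the 300 kb after it. The window just before it, 10100001 to 10200000, was covered to 4.52% and 0.387%. The same measure over every 3 neighbouring windows gave at most 27.1% and 22.5% elsewhere on 2L, at 4800001 to 5100000. On 2R the most covered 300 kb reached 32.4% and 33.8%, on the X 32.2% and 27.9%, on 3R 26.9% and 25.9%, and on 3L 25.9% and 21.6%. Chromosome 4 lay higher, with a median window of 72.6% and 67.8% and a lowest window of 26.7% and 27.2%. The stretch of 2L therefore held cover above the lowest 100 kb window of chromosome 4 and below the median one, in both libraries. The most covered 300 kb of 2R and of the X also lay above that lowest window in both libraries. On chromosome 4 the most covered 300 kb reached 85.2% and 82.4%. The stretch of 2L makes up 1.30% of the length of the arm. It held 5.38% of the cover of the arm in replicate 1 and 5.92% in replicate 2. Because the stretch was picked as the highest, these values are given with no test.

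**Figure D2:**
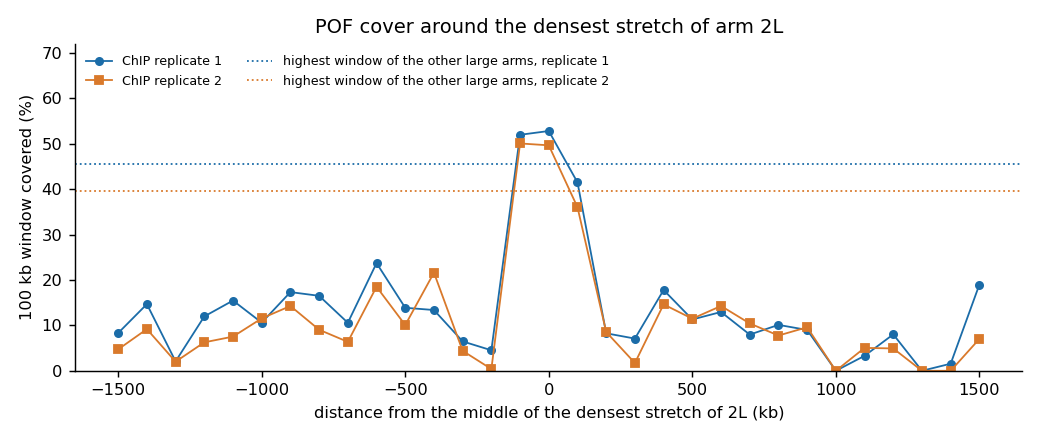
Percent of each 100 kb window covered by POF clusters (y axis) against the distance of the window from the middle of the densest 300 kb of 2L in kb (x axis), for each ChIP replicate. Dotted lines mark the highest window of the other large arms in each replicate, 45.5% in replicate 1 and 39.7% in replicate 2. Of the 3 central windows, 2 exceed the line of each replicate.

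Inside the stretch lay 42 replicate-set clusters, and 32 of them (76.2%) were overlapped by a cluster in both replicates. On the rest of 2L the share was 50.0% of 1499. Median width was 2997 bases inside and 2016 bases on the rest of 2L, and 13 of the 42 clusters reached 5 kb, against 52 of the 1499. The median score was 0.986 inside and 0.443 outside. Neighbours stood close, with a median distance to the nearest cluster of 873 bases inside and 2694 bases on the rest of 2L. The replicates overlapped closely there too: bases covered in both, divided by bases covered in either (the Jaccard index), came to 0.853 inside and 0.584 on the rest of 2L. The stretch was picked by its cover in these same 2 replicates. Recurrence, width, score, distance and this index are not independent of that choice, so they only describe the stretch. The part of the denser cover in them was not tested.

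The stretch contained the 2 highest-scoring clusters of the arm. The first, at 10412274 to 10415274 (3.00 kb), scored 3.44 in the replicate set, and the clusters over it scored 3.33 in replicate 1 and 3.58 in replicate 2. It ranked 1 on 2L in all 3 lists. The second, at 10421684 to 10424945 (3.26 kb), scored 3.04 in the replicate set, 3.06 in replicate 1 and 3.39 in replicate 2, and ranked 2 in all 3 lists. Both belong to a run of 7 clusters between 10394763 and 10440528, each less than 5 kb from the next, of which 6 were found in both replicates. The widest cluster of 2L, 11.7 kb at 10259504 to 10271247, also lay in the stretch. It was a single cluster of 11.7 kb in replicate 1 and 11.5 kb in replicate 2, with scores of 1.55 and 1.81. Its run, 10245815 to 10281218, held 6 clusters, 5 of them found in both replicates, and was covered to 63.9% and 63.5%. Further runs of the stretch lay at 10217526 to 10240509, with 4 clusters, and at 10466105 to 10489690, with 6 clusters and a cover of 49.9% and 49.3%. Only 3 of the 6 clusters of this last run were found in both replicates.

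The 10 highest-scoring 2L clusters found in both replicates were spread over 9 of the 23 bins. Their widths lay between 2.32 and 3.26 kb, all above the median of 2020 bases of all 2L clusters. The median of the 2L clusters found in both replicates was 2471 bases, and the members of 2324, 2431 and 2445 bases lay below it. Replicate-set scores of the 10 lay between 2.57 and 3.44. After the leading pair came 2419379 to 2421823, with a score of 2.92 in the replicate set, 2.90 in replicate 1 and 2.90 in replicate 2. The cluster at 7819902 to 7822887 scored 2.80, with 2.76 and 2.93 in the replicates. The next were 6454270 to 6457330 (replicate-set score 2.71), 3375705 to 3378028 (2.70), 20680568 to 20683337 (2.70), 18702119 to 18704549 (2.66) and 22119806 to 22122875 (2.57). The last of the 10, 13903311 to 13905837, was less alike in the replicates. It ranked 3 of 920 in replicate 2, with a score of 3.05, and 44 of 1203 in replicate 1, with 1.86. Of the 10 clusters, 9 had the higher score in replicate 2. Scores of separate lists may differ in scale, so this order is not read as a difference in POF.

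**Figure D3:**
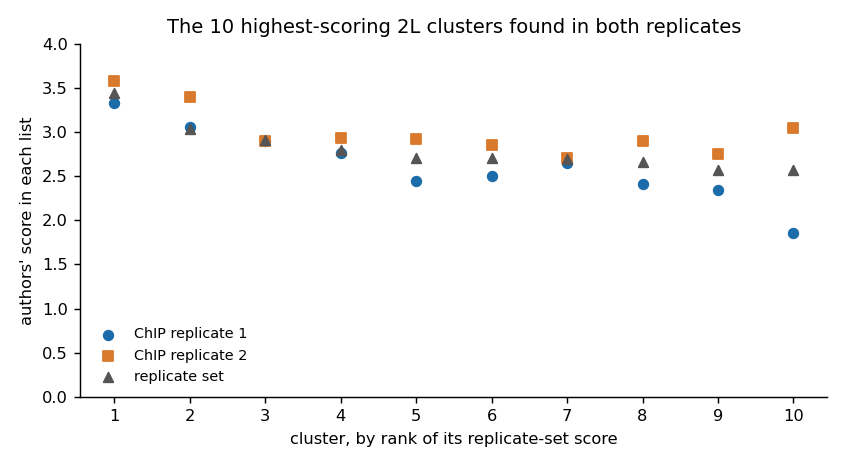
The authors' score (y axis) in each ChIP replicate and in the replicate set for the 10 highest-scoring 2L clusters found in both replicates, ordered by replicate-set score (x axis). The first cluster scores 3.33 to 3.58 in the 3 lists, and the last shows the widest gap, 1.86 in replicate 1 and 3.05 in replicate 2.

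In each bin the highest-scoring cluster found in both replicates was taken, so that a high score is built into the choice. These leading clusters scored between 1.62 and 3.44 in the replicate set over the 23 bins, with a median of 2.38. Their median score was 2.22 in replicate 1 and 2.57 in replicate 2, where they ranged between 1.69 and 3.58. The poorly covered bin from 15000001 to 16000000 still held a site, 15750085 to 15753212, that scored 2.34 in the replicate set, with 2.10 and 2.57 in the replicates. The well covered first Mb had no cluster above 1.76, the score of 818506 to 822389. Between these 2 bins, the one with more cover thus had the lower leading score. The most covered bin, 10000001 to 11000000, held the highest leading score, 3.44. The relation of cover to leading score over the 23 bins was not computed. Of the 23 sites, 6 had no other cluster within 5 kb.

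Wider clusters tended to score higher: the median score was 1.01 for the 65 clusters of at least 5 kb and 0.398 for the 445 under 1.5 kb. Of the 5 widest found in both replicates, 4 had replicate-set scores of 0.539 to 1.04. These lay above the median of 0.445 of all 2L clusters and below the scores of the 10 highest-scoring clusters. The median of the 2L clusters found in both replicates was 0.742, and the score of 0.539 lay below it. Of the 4 scores, only 1.04 was above the median of 1.01 of clusters of at least 5 kb. The second widest, 11.5 kb at 4996766 to 5008297, scored 0.539 and corresponded to 4 clusters in replicate 1 and 3 in replicate 2, which covered 72.4% and 76.3% of it. The others were 2747744 to 2756398 and 7196694 to 7205348, 8.66 kb each, and 21617627 to 21626141, 8.52 kb. In the replicate set, 2 clusters of 2L reached 10 kb. Width and score had a Spearman rho of 0.589 over the 1541 clusters of the replicate set, 0.687 over those of replicate 1 and 0.763 over those of replicate 2, given as a description of clusters that share their libraries.

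The next comparison asked how far the clusters of 2L recurred in the single replicates, counting an overlap of at least 1 base. Of the 1541 clusters, 782 (50.7%, exact 95% interval 48.2% to 53.3%) were found in both replicates, where the share over the major chromosomes was 50.3%. A further 278 (exact 95% interval 16.2% to 20.1%) were found in replicate 1 only, against 16.5% over the major chromosomes. Replicate 2 alone held 111 (7.20%, interval 5.96% to 8.61%), against 8.77%. The remaining 370 (interval 21.9% to 26.2%) were found in neither, against 24.5%. Among replicate-set clusters at least as wide as the narrowest of the replicate lists, 1301 bases, 65.2% were found in both and 10.0% in neither, a limit set after the data were seen. The intervals cover counting error only and treat clusters as independent. Over all 1541 clusters, the interval for replicate 2 alone lay below the share over the major chromosomes, which include 2L. Each of the other 3 intervals included its share. The clusters come from the same 2 libraries, so the interval is not read as a difference of 2L. The share in replicate 2 alone was 9.25% on 2R, 7.48% on 3L, 9.67% on 3R and 10.2% on the X. The 782 clusters found in both made up 67.3% of the covered length of 2L in the replicate set, and the 370 found in neither made up 13.5%.

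Recurrence went with width and score. Only 1 of the 445 clusters narrower than 1.5 kb was found in both replicates. At widths of at least 1.5 kb but under 2 kb, 70 of 300 (23.3%) were. The share was 86.5% (447 of 517) at widths of at least 2 kb but under 3 kb. It was 93.5% (200 of 214) for wider clusters under 5 kb, and 98.5% (64 of 65) at 5 kb or more. The replicate lists hold no 2L cluster narrower than 1301 bases, and the replicate set goes lower, with 25% of its 2L clusters at or under 1381 bases. By score, 188 of 838 clusters (22.4%) between 0.25 and 0.5 were found in both, and 353 of 382 (92.4%) between 0.5 and 1. From a score of 2, 38 of 39 were found in both. These limits were set with the values known. Wider clusters also overlap others more often by position alone, and the part of this was not tested.

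**Figure D4:**
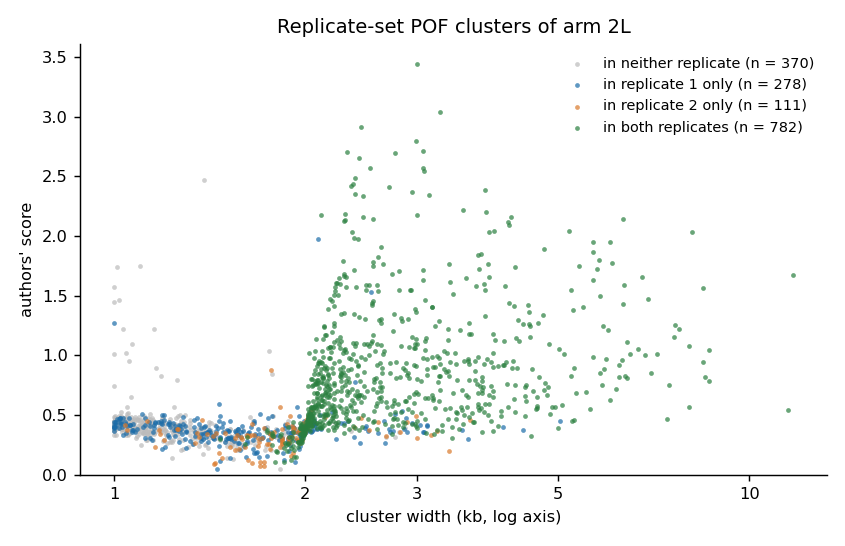
The authors' score (y axis) against width in kb (x axis, log axis) for the 1541 replicate-set clusters of 2L, coloured by the replicates in which an overlapping cluster was listed. Clusters found in both replicates (782) lie mostly at 2 kb and over, and those found in neither (370) gather below 1.5 kb.

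Compared directly, 817 of the 1203 replicate 1 clusters on 2L (67.9%) were overlapped in replicate 2, where the share over the major chromosomes was 69.9%. In the other direction 796 of 920 (86.5%) were overlapped, against 84.5%. Bases covered in both replicates made up 8.15% of the arm, and the Jaccard index was 0.597 on 2L and 0.600 on the other large arms. For 748 pairs of clusters that overlapped each other and no further cluster, the middles lay a median of 80.5 bases apart, and 55.1% were within 100 bases. Their scores had a Spearman rho of 0.799 and a Pearson r of 0.889. These pairs share 2 libraries, and the correlation describes them. In replicate 1, clusters lacking a counterpart were narrower (median 1568 bases) and scored lower (median 0.538) than those with one (2176 bases, score 0.732). The same order held in replicate 2, at 1746.5 bases and a score of 0.479 without a counterpart and 2237 bases and 0.830 with one. Clusters absent from the replicate set numbered 106 of 1203 in replicate 1 and 12 of 920 in replicate 2. Over the major chromosomes they numbered 490 of 6238 in replicate 1 and 54 of 5103 in replicate 2. Of the 50 highest-scoring 2L clusters of replicate 1, 41 were overlapped by one of the 50 highest of replicate 2.

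The strongest 2L clusters of replicate 1 with no counterpart in replicate 2 lay together at the centromere end of the arm. They were 22996797 to 22998695, with a score of 2.65 and rank 6, 22990106 to 22992113, with 2.29 and rank 17, and 22985189 to 22987049, with 1.27 and rank 124. They were named after their values were seen. In replicate 2 the highest-scoring cluster without a counterpart ranked 125 of 920, at 21478633 to 21480155 with a score of 1.51. The 3 highest-scoring replicate-set clusters found in neither replicate lay in the last 2 complete bins of the arm. They were 22993024 to 22994408 (score 2.47, 1.39 kb), 21458338 to 21459435 (1.75, 1.10 kb) and 22722838 to 22723847 (1.74, 1.01 kb).

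Recurrence was lowest in that last part of the arm. The bin 22000001 to 23000000 held 97 replicate-set clusters, the most of the 23 bins, and 22 of them (22.7%) were found in both replicates and 47 (48.5%) in neither. Its median width was 1390 bases, the lowest of the 23 bins. Cover was 14.5% in replicate 1 and 8.59% in replicate 2, a ratio of 1.69, exceeded only by 1.81 in the bin 17000001 to 18000000. The first Mb at the tip gave 15.0% and 15.2%, with 49 of 69 clusters (71.0%) in both. The leading cluster of the bin at the centromere end, 22119806 to 22122875, was found in both replicates, with scores of 2.35 (replicate 1) and 2.76 (replicate 2). That cluster stood in the longest run of 2L, 12 clusters between 22108357 and 22155096, of which 4 were found in both replicates. The 100 kb windows of this bin were uneven: 22100001 to 22200000 was covered to 32.0% in replicate 1 and 21.6% in replicate 2, and 22900001 to 23000000 to 28.2% and 13.2%. The window 22500001 to 22600000 had 1.42% in replicate 1 and no cover in replicate 2, and all 5 of its replicate-set clusters were found in neither.

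The ends of the other arms were measured in the same way. In the last 1 Mb towards the centromere, clusters found in both replicates made up 23.5% on 2L (23 of 98), 23.3% on 2R, 8.06% on 3L, 41.3% on 3R and 42.9% on the X. In the 1 Mb at the tip the shares were 71.0% on 2L, 60.7% on 2R, 44.1% on 3L, 51.0% on 3R and 43.7% on the X. The ratio of cover in replicate 1 to replicate 2 on the centromere side was 1.67 on 2L, 1.84 on 2R, 3.22 on 3L, 1.11 on 3R and 1.07 on the X. Over the last 2 Mb towards the centromere the share was 36.4% on 2L, 27.3% on 2R, 14.6% on 3L, 55.0% on 3R and 45.7% on the X, so the value of 2L depended on the length taken. These differences were not tested. In the 1 Mb on the centromere side, clusters under 1.5 kb made up 52.0% on 2L, 43.7% on 2R and 54.8% on 3L. On 3R they made up 33.8%, and on the X 45.7%. At the tip they made up 11.6% on 2L, 26.2% on 2R, 25.8% on 3L, 26.5% on 3R and 26.8% on the X. On 2L such clusters were rarely found in both replicates, and the part of width in these shares was not tested. The separate heterochromatic sequence of the arm, 2LHet, had 21 replicate-set clusters, of which 2 were found in both replicates and 9 in neither. Sequence repeats and depth were not measured here, and their part in these values was not tested.

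**Figure D5:**
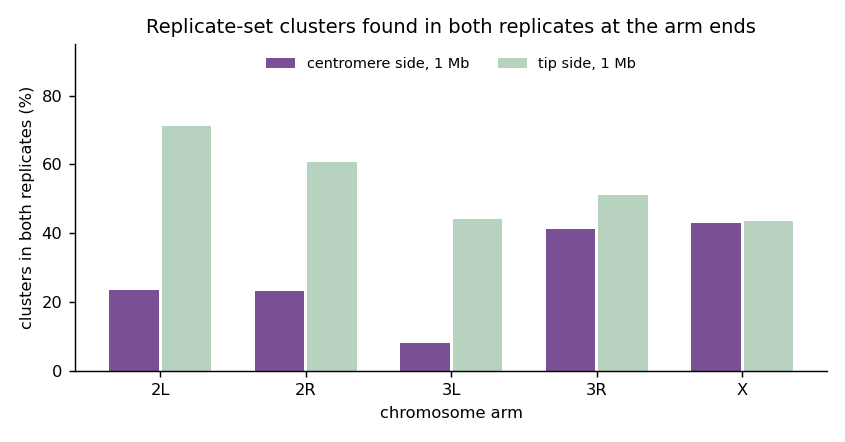
Percent of replicate-set clusters found in both replicates (y axis, bars from 0) in the 1 Mb on the centromere side and the 1 Mb at the tip of each large arm (x axis). On 2L the bars stand at 23.5% and 71.0%.

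Clusters of 2L stood about as close together as those of all large arms. Of the 1540 distances between neighbours in the replicate set, 46.8% were under 5 kb, where the share over the large arms was 47.4%. Joined at that distance, the clusters formed 821 units: 489 single clusters and 332 runs of 2 or more. Runs of 5 or more numbered 56 and held 345 clusters (22.4%). The counts of runs are given for 2L alone and are not set against other arms or a random placement. The second longest run was 10 clusters over 54.3 kb, 10291219 to 10345527, inside the densely covered stretch, with 62.8% of its length covered in replicate 1 and 55.6% in replicate 2. Runs of 9 clusters lay at 2723545 to 2771130 and at 18676261 to 18715308. A cluster found in both replicates had another within 5 kb in 74.4% of cases, and a cluster found in neither in 59.7%.

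Parts of the arm had long stretches without POF clusters. The longest stretch free of clusters in all 3 lists was 154 kb, at 15334491 to 15488900. After it came 147 kb at 11630249 to 11777468, and 140.4 kb at 15500835 to 15641262. The remaining 2 of the 5 longest were 135 kb at 603743 to 739240, and 131 kb at 12723231 to 12853780. The least covered bin held 2 of the 5. In all, 12 such stretches of at least 100 kb took up 6.47% of 2L, against 5.09% of 2R, 4.97% of 3L, 6.04% of 3R and 8.96% of the X. Of the 230 windows of 100 kb, 6 (2.61%) had no cover in either replicate, where the share over the large arms was 4.12%. At the other end, 25 windows (10.9%) were covered to at least 20% in both replicates, against 9.92% over the large arms. They lay in 15 of the 23 bins, with 4 in the first Mb and 3 in the bin from 10000001 to 11000000. The most covered 23 of the 230 windows held 25.6% of the cover in replicate 1 and 27.4% in replicate 2. On the other large arms the most covered 95 of 959 windows held 23.6% and 24.6%.

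The lists also name regions of 2L as depleted of POF, 3 in the replicate set and 1 in replicate 1. Those of the replicate set were 1149792 to 1151651 (score -0.0387), 6126895 to 6128659 (-0.00304) and 9911834 to 9913594 (-0.0460). Each was overlapped by an enriched cluster in replicate 2 and by none in replicate 1. The depleted region of replicate 1, 815009 to 816792 (score -0.00131), was overlapped by enriched clusters of the replicate set and of replicate 2. The lists thus disagreed about the direction at all 4 regions, which stayed out of every comparison.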

How the data were processed

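The authors deposited a list of regions for each POF ChIP replicate and another for the whole series, each region with a position and a score. The deposited score has no stated scale, and how the replicates were combined is not stated. Bowtie 0.12.7 is named per the submitters' processing notes, and the build is FlyBase release 5, per the file headers. Not given in the sources used here are the region caller, its thresholds and the depth. Input values were not analysed here, and a gene table at hand follows Release 6, so no genes were assigned. Cover, overlaps (at least 1 base), 1 Mb bins and 100 kb windows were computed with scipy 1.17.1, pandas 2.3.3 and numpy 2.4.6 under Python 3.11.15. Plots used matplotlib 3.10.9. The code for overlap, cover and joining was tested on simulated lists; the permutation test and the other summaries were not. Named regions were the 10 highest-scoring and 5 widest clusters found in both replicates, the leader of each bin, the 3 highest-scoring found in neither, the 3 most and least covered bins, the 5 longest uncovered stretches and all depleted regions. The members, lists and rules were chosen with earlier results of these data known. Exact permutation tests compared cover over libraries. Alternatives were filters on score and width, joining of close clusters, a stricter overlap, each list in turn, and parts of the arm left out.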

Additional observations from a re-analysis of the deposited data

How the results depend on the processing

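Of 76 alternatives tried over 12 results, 37 moved a value by less than its spread or allowed range, 32 moved it further and 7 turned its sign, all 7 for the difference in cover. The cover ratio lay between 0.955 and 1.02, and 0.955 was the value without the 300 kb of highest cover, chosen after seeing the data. The difference in cover, 0.00629 points, has no settled sign. It was -0.105 with a minimum score, -0.00355 with close clusters joined, -0.0444 without the proximal 2 Mb, -0.307 in the replicate set, -0.141 without the X and -0.471 without the 300 kb, and the cause was not tested. Leaving out a replicate gave differences of -0.266 to 0.278, cover of 9.97% to 11.8%, ratios of 0.974 to 1.02 and 28 to 39 windows of at least 20% cover. With a replicate block (arms of 1 library paired) the difference was the same 0.00629 points (exact permutation p = 1.0).

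A minimum score at the median of each list gave 6.39% cover, 4 windows, 55.1% of clusters in both and 19.6% in neither, a median width of 2497 bases, 29.9% of distances under 5 kb and a rho of 0.766 between replicate scores. A minimum width of 2000 bases gave 7.93% cover, 7 windows, a Jaccard index of 0.644, 65.8% in both, 10.6% in neither, 82.6% of replicate 1 clusters overlapped, a median score of 0.740, 35.5% of distances under 5 kb and a rho of 0.780. These filters remove clusters, so less cover is built in. Applying the 1301-base limit of the replicate lists to the replicate set, an alternative chosen after seeing the data, gave 65.2% in both and 10.0% in neither. Joining close clusters gave a Jaccard index of 0.599 and 42.0% of distances under 5 kb. Without the proximal 2 Mb the index was 0.600 and rho 0.789, and without the 300 kb the index was 0.584. The replicate set covered 15.2%. Replicate 1 gave a median score of 0.626 and 40.8% of distances under 5 kb, and replicate 2 gave 0.735, 38.6% and a median width of 2175 bases. A distance of 2 kb in place of 5 kb left 26.2%. Depth is unknown, and its part in the counts of clusters was not tested.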
